A study of Saccharomyces cerevisiae Sigma1278b with 62 samples.

Results

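Total RNA of asc1-M1X and WT yeast was sequenced without selection for poly(A) tails, and these libraries are 4 of the 62 samples of the series. They were picked by their labels, as the 2 asc1-M1X and the 2 WT total RNA samples treated with Ribo-Zero, a kit that removes ribosomal RNA by hybridization. Both strains are of the Sigma1278b background and were grown to mid log phase in rich medium with 2% glucose at 30˚C, then given 0.1 mg/ml cycloheximide for 2 minutes before lysis. The asc1-M1X strain carries a stop codon in place of the ASC1 start codon and keeps the intron that holds the snoRNA SNR24. WT was 1 strain (YWG25) and the mutant libraries came from 2 isolates (YWG1116 and YWG1121), so that each mutant library is a separate isolate and the WT libraries share one strain. The titles of both mutant libraries read asc1-Null, whereas their strain numbers and column labels give asc1-M1X. Other comparisons of the same strains are set beside this one where they bear on it, each with 2 mutant and 2 WT libraries. They are total RNA of asc1-M1X selected with oligo-dT, ribosome footprints (FP) of asc1-M1X, and oligo-dT total RNA of asc1∆, which lacks the gene.

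Asc1 is the yeast RACK1, a WD-repeat protein on the head of the small ribosomal subunit near the mRNA exit channel. It is linked to translation, to ribosome stalling and to signalling in glucose sensing, mating and invasive growth, and Sigma1278b is the background in which yeast filamentous growth is usually studied. Oligo-dT captures only RNA with a poly(A) tail, so that mRNA with a short tail can be lost and RNA of the mitochondrial genome, which in yeast is not polyadenylated, is left behind. Depletion of ribosomal RNA leaves these molecules in the library.

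Levels are given as scaled CPM, that is, CPM (counts per unit of library size, the reads on nuclear ORFs) after TMM scaling, which corrects for the composition of the libraries. The WT Ribo-Zero libraries held 3022631 and 2111113 counted reads and the mutant ones 3892154 and 4440340, on 5544 ORFs. The 2 libraries of a strain differed by more than sampling noise, with a chi-square per degree of freedom of 1.78 between the WT libraries and 1.41 between the mutant ones. The a-cell genes were read in every library, STE2 at 856 to 1055 scaled CPM and MFA1 at 8.46 to 11.15. Of the alpha-cell genes, MF(ALPHA)1 had at most 2 reads and MF(ALPHA)2 had none. STE3 (14.43 to 20.85 scaled CPM) and SAG1 (19.41 to 32.15), also alpha-cell genes, were read in every library. By STE2 and the alpha-factor genes, all 4 libraries read as a cells.

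ASC1 (YMR116C) itself stood at 4062 and 4444 scaled CPM in the WT libraries and at 1401 and 1508 in the mutant ones. The groups did not overlap, and the mutant kept 34.2% of the WT level, which is -1.55 on the log2 scale (SE 0.05; adjusted p = 2.9e-215, edgeR quasi-likelihood test). ASC1 RNA was therefore present in both libraries titled asc1-Null, with 5576 and 6761 reads, whereas the oligo-dT libraries of asc1∆ held 61 and 145 ASC1 reads. The ASC1 RNA of the mutant was hardly found on ribosomes, since its FP libraries held 249 and 179 reads against 30475 and 33792 in WT, a log2 change of -7.48. A gene at 0.559% of its WT footprints thus kept 34.2% of its WT RNA level in a strain without its start codon. ASC1 overlaps SNR24, which was not analysed here, and the sources used here do not say whether strand was used in counting.

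Across the genome, the RNA level of a large share of genes differed between asc1-M1X and WT by small amounts. Of 5006 ORFs with at least 128 reads over the 4 libraries, 896 rose (17.9% of those tested) and 1011 fell (20.2%) at a Benjamini-Hochberg adjusted p under 0.05 (edgeR, quasi-likelihood test). Together they were 38.1% of the genes tested. The counts of gene lists given below are to be read against these shares. The median log2 change was 0.44 among genes that rose and -0.34 among those that fell, and 75 rose and 24 fell by more than 1 on the log2 scale. The mutant and WT levels did not overlap for 67.4% of the genes tested. The number called depended on the test: DESeq2 called 442 up and 450 down (17.8% in all), each of which edgeR had called. Without the second asc1-M1X library, edgeR called 566 up and 648 down. TMM scaling gave 46.98% of its calls upward, and with libraries scaled by their size alone 1302 rose and 637 fell, or 67.15% upward. The share called also moved with the level: among the 1002 genes of lowest mean level 169 rose and 66 fell, and among the 1001 of highest mean level 221 rose and 405 fell. The spread between replicates, though above sampling noise, was small and was pooled over genes, so that very small p-values rest on that pooled spread. They measure the spread between these 4 libraries, which may be technical in part. No gene tested differed by more than 1 on the log2 scale between the 2 mutant isolates, and 6 did between the WT libraries. The mutant libraries held more reads, so these counts were not taken at equal depth.

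**Figure D1:**
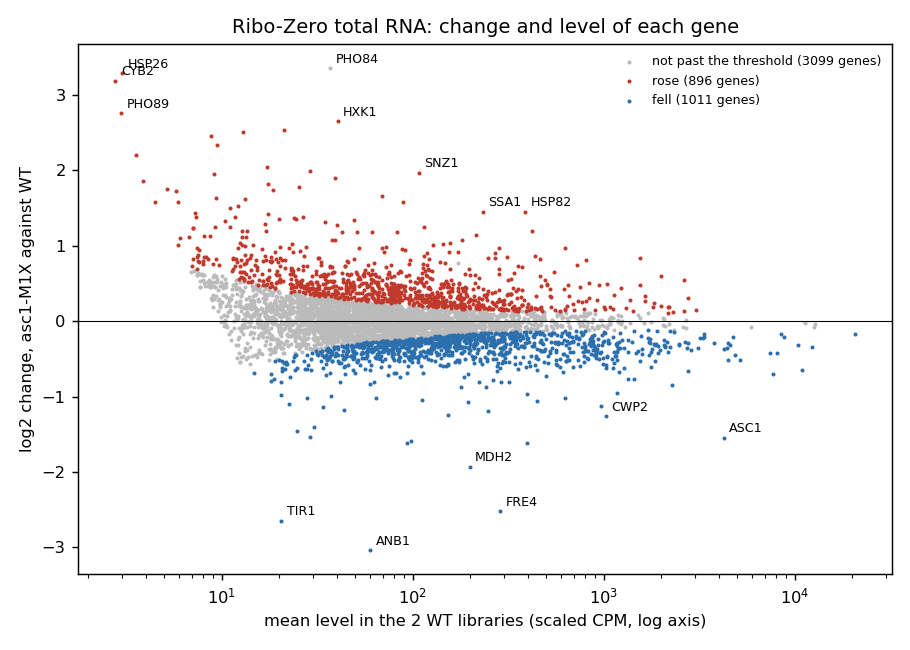
Each point is 1 of the 5006 ORFs tested, at its mean level in the 2 WT libraries (x axis, scaled CPM, log axis) and its log2 change in asc1-M1X (y axis), coloured by edgeR's call at an adjusted p under 0.05. ANB1, TIR1 and FRE4 lie lowest, at -3.03, -2.65 and -2.52, HSP26 and CYB2 lie at 3.29 and 3.19, and PHO84, at 3.36, did not pass the test.

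The genes that fell furthest included targets of the response to low oxygen, cell wall mannoproteins and genes of invasive growth. ANB1, the form of eIF5A that yeast makes in low oxygen, was at 67.8 and 52.3 scaled CPM in WT and at 9.29 and 5.80 in the mutant, a log2 change of -3.03 (SE 0.18). HYP2, which codes for the form of eIF5A made in air, fell as well, from 2615 and 2925 to 1736 and 1750 scaled CPM, a log2 change of -0.67 (SE 0.05). TIR1, a cell wall mannoprotein gene of cold and anaerobic growth, fell from 23.1 and 17.9 to 3.27 and 3.35 (log2 change -2.65, SE 0.30). Both mutant libraries were below both WT libraries for all 3 genes, which the choice of ANB1 and TIR1 as largest decreases required. The same held for 34.7% of all genes tested. AAC3, the ADP/ATP carrier of anaerobic cells, had a log2 change of -1.17 (SE 0.15).

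FRE4, a ferric reductase that acts on siderophore-bound iron, dropped from 285 and 288 scaled CPM to 52.8 and 47 (log2 change -2.52, SE 0.08). The metabolic genes among the largest decreases were MDH2, the cytosolic malate dehydrogenase (-1.93), RIB4 of riboflavin synthesis (-1.62), PTR2, the peptide transporter (-1.59), and MET2, the homoserine acetyltransferase of methionine synthesis (-1.54). MDH2 stood at 220 and 178 scaled CPM in WT against 56 and 50 in the mutant, and RIB4 at 397 and 396 against 127 and 132. That the groups did not overlap was required by the choice of these genes. CLB1, a B-type cyclin of mitosis, changed by -1.24, and CLN1, a cyclin of late G1 phase, by -1.19.

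Of the 40 tested filamentation and cell wall genes, 20 fell and 7 rose, where 20.2% of all genes fell and 17.9% rose. The list had a median log2 change of -0.19 against -0.01 over all genes tested. The genes that rose were 3 without the first asc1-M1X library and 4 without the second. Besides TIR1, the largest changes in it were those of NFG1, a negative regulator of filamentous growth (98 and 89.1 against 31.4 and 30.3 scaled CPM, log2 change -1.61, SE 0.12), PGU1, the pectinase that Sigma1278b secretes (24.1 and 25.4 against 10.1 and 8.03, -1.45, SE 0.23), and PHD1, a transcription factor of pseudohyphal growth (32.7 and 27.9 against 11.8 and 11.4, -1.40, SE 0.20). They were left at 32.7%, 36.6% and 37.8% of WT. The list holds members of opposed roles, since NFG1 restrains filamentation while PHD1 promotes it. CWP2, a major mannoprotein of the cell wall, fell from 1054 and 1009 to 437 and 426 scaled CPM (-1.26, SE 0.05).

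The largest increases were those of a small heat shock protein, of genes repressed by glucose and of vitamin genes. HSP26, a small heat shock protein that binds unfolded proteins, rose from 2.06 and 3.98 to 27.1 and 29.2 scaled CPM (log2 change 3.29, SE 0.30). CYB2, the lactate dehydrogenase of mitochondria, rose from 2.06 and 3.48 to 23.9 and 25 (3.19, SE 0.32). The WT libraries held at most 8 reads of either gene, so that the size of these 2 changes rests on few WT reads. HXK1, the hexokinase that glucose represses, rose with many more reads, from 38.5 and 42.3 to 230 and 272 scaled CPM (2.65, SE 0.10). NDE2, a mitochondrial NADH dehydrogenase, changed by 2.20 and AMS1, the vacuolar mannosidase, by 2.46.

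SNZ1 and SNO1, which share a promoter region and make vitamin B6, rose together. SNZ1 stood at 107 and 108 scaled CPM in WT and at 363 and 477 in the mutant (1.97, SE 0.12), and SNO1 at 6.88 and 11.9 against 37.9 and 52.4 (2.34, SE 0.19). BNA2, the first enzyme of NAD synthesis from tryptophan, rose from 12.4 and 13.4 to 76.1 and 70.9 (2.51, SE 0.16); its ORF overlaps YJR079W in the S288C annotation, and the sources used here do not say whether strand was used in counting. The other large increases were BSC5 (2.54), COS8 (2.05), HSP42, another small heat shock protein (2.00), YNR068C (1.95), YBP1, a partner of the oxidant sensor Yap1 (1.90), NGL3 (1.85) and PHO89, a sodium-phosphate transporter (2.76). COS8 belongs to a family of near-identical subtelomeric genes, and its unique reads cover only what distinguishes it. Among the 15 largest increases and 15 largest decreases, the largest adjusted p was 1.29e-06 by edgeR's quasi-likelihood test and 0.00403 by DESeq2.

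**Figure D2:**
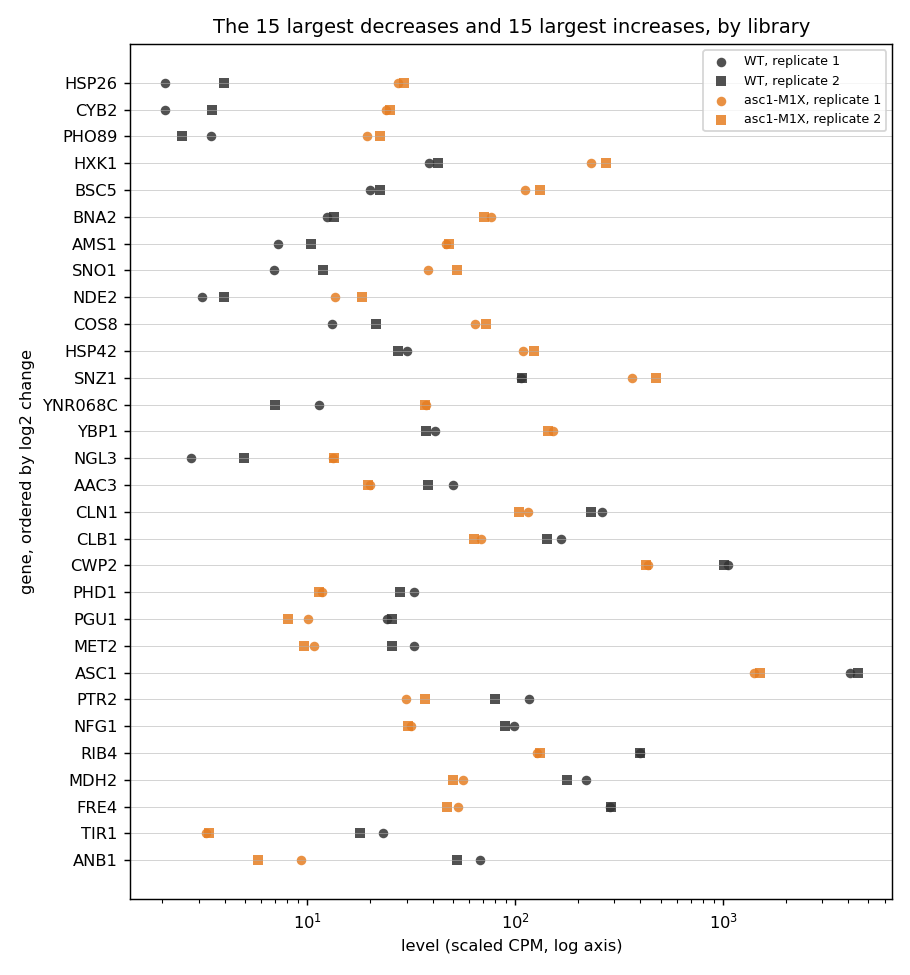
Level of the 15 genes with the largest decrease and the 15 with the largest increase (y axis, ordered by log2 change) in each of the 4 Ribo-Zero libraries (x axis, scaled CPM, log axis; black WT, orange asc1-M1X). In every one of these genes both mutant points lie on one side of both WT points, which the choice of genes required, and the distance between strains exceeds that between replicates, as for HXK1 with 38.5 and 42.3 against 230 and 272.

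Genes of the ribosome fell almost as a body. Of 131 cytoplasmic RP genes tested, 125 fell and 2 rose, where 20.2% of all genes fell, and their median log2 change was -0.39. The RP genes together took 134100 and 143600 scaled CPM in WT and 105400 and 108600 in the mutant. The largest decreases were those of RPL8A (1182 and 1240 against 749.6 and 767 scaled CPM, -0.67), RPL9B (-0.65), RPL18B (-0.62) and the stalk protein gene RPP1A (-0.62). These 4 were the members with the largest decrease. The 2 that rose, named here after their values were seen, were RPS22B (0.56, SE 0.08) and RPS14B (0.45, SE 0.07), which code for small subunit proteins and carry introns. RPS14B is held down in yeast by its own protein product. With DESeq2, 111 RP genes fell, and with libraries scaled by size alone 115 did, with a median of -0.30. RP paralogs share long identical stretches, so their unique reads come from the parts in which they differ.

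Ribosome assembly factors, which act in the nucleolus to build the subunits, fell less. Of 100 tested, 36 fell and 10 rose, where 20.2% of all genes fell and 17.9% rose, with a median of -0.10. RRP9 of the small subunit processome was at 184 and 167 against 126 and 121 scaled CPM (-0.52) and UTP15 at 236 and 215 against 167 and 154 (-0.50), whereas NOP8 rose by 0.66 and the kinase gene RIO1 by 0.57. With DESeq2, 13 fell and 3 rose, and with scaling by library size 17 fell and 16 rose. Without 1 library, 5 or 6 rose, and 18 fell without the first WT library, 21 and 19 without the first and second asc1-M1X library. Of 40 translation factors, 13 fell and 8 rose, against the same shares of all genes. Their median of -0.07 became 0.02 with scaling by library size. Only 5 rose without the second asc1-M1X library, and 8 fell by DESeq2. TEF2, 1 of 2 genes for elongation factor eEF1A, fell by 0.49 on the log2 scale, and CAM1, a subunit of its exchange factor, rose by 0.48.

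MRP genes, which code for the ribosome of mitochondria and are translated in the cytoplasm, fell in part. Of 74 tested, 31 fell and none rose, where 20.2% of all genes fell, with a median log2 change of -0.30. MRPL1 was at 58.8 and 66.2 scaled CPM in WT and at 36.9 and 34.1 in the mutant (-0.80, SE 0.13), RSM27 at 13.4 and 22.9 against 10.6 and 9.59 (-0.79, SE 0.25), MRPL38 changed by -0.64 and MRPL44 by -0.61. The reads behind RSM27 were few and its WT libraries lay far apart. Only 5 MRP genes fell by DESeq2 and 18 without the second asc1-M1X library, while 63 of the 74 had a log2 change below 0 in edgeR's fit.

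Core histone genes fell together. All 8 genes for the core histones fell under every alternative tried, among them HHF2 for histone H4 (169 and 190 against 92.4 and 101 scaled CPM, -0.88, SE 0.08), HTA2 for H2A (262 and 289 against 170 and 175, -0.66, SE 0.07), HTB1 (-0.63) and HTB2 (-0.59) for H2B. The other 3 members, named after their values were seen, did not pass the test: the variant HTZ1 had a log2 change of -0.21, the linker HHO1 of -0.21 and the centromeric CSE4 of 0.07. Core histone mRNA of yeast is made in S phase and is polyadenylated, unlike most of that of animals. The median change of the 11 genes was -0.33 in oligo-dT total RNA and -0.56 in Ribo-Zero total RNA. Gene by gene, the median difference between the selections was -0.12, and none of the 11 passed a test of it.

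Chaperones of the heat shock response rose. Of 28 genes tested 21 rose and 4 fell, where 17.9% of all genes rose, with a median log2 change of 0.46. HSP82, the inducible Hsp90, stood at 396 and 382 scaled CPM in WT and at 1042 and 1093 in the mutant (1.45, SE 0.06), and SSA1, an Hsp70, at 227 and 241 against 620 and 654 (1.45, SE 0.06). SSE2, an Hsp110, rose by 1.35 and HSP42 by 2.00. The 4 that fell, named after their values were seen, were SSB1 (-0.34) and SSB2 (-0.29), the Hsp70 genes of the ribosome, HSP10 of mitochondria (-0.22) and KAR2 of the endoplasmic reticulum (-0.12). DESeq2 called 17 up and 2 down, and 2 fell without the second WT or without the first asc1-M1X library.

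Genes of trehalose, glycogen and general stress rose as well, with 22 up and 1 down of 32 tested. Of all genes, 17.9% rose and 20.2% fell. The list's median was 0.55. GPH1, glycogen phosphorylase, was at 10.3 and 8.46 against 28.9 and 30.6 scaled CPM (1.64, SE 0.21), GSY2, glycogen synthase, at 24.8 and 22.9 against 63.8 and 60.7 (1.37, SE 0.14), and GDB1, the debranching enzyme, at 36.5 and 33.3 against 89.7 and 85.2 (1.31, SE 0.12). Both the enzyme that makes glycogen and those that break it down rose. The member that fell, named after its value was seen, was MSC1 (-0.39).

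**Figure D3:**
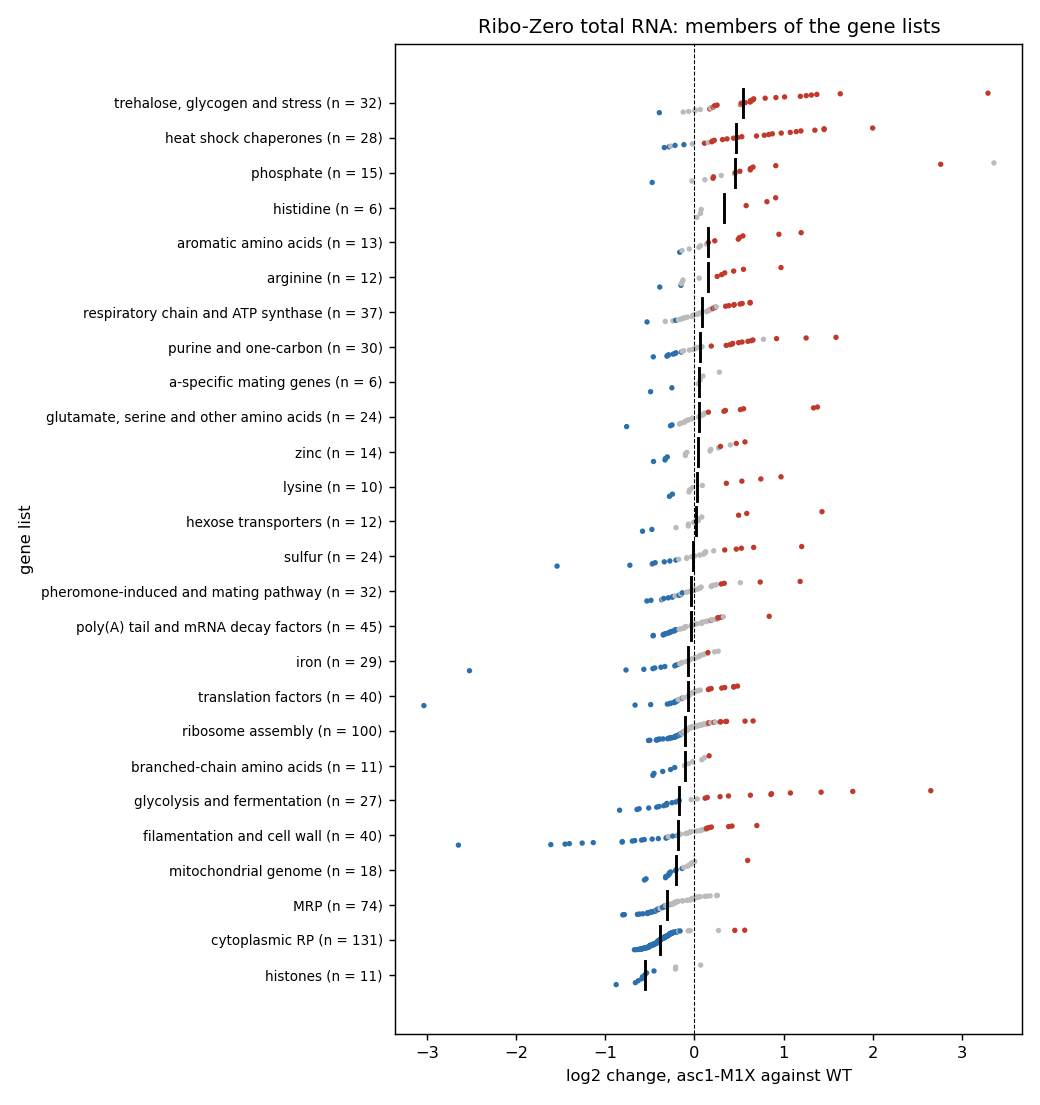
Log2 change in asc1-M1X (x axis) of each tested member of the plotted gene lists, each with at least 6 tested members (y axis, ordered by median), coloured red where it rose, blue where it fell and grey where it did not pass edgeR's test; the black bar is the list's median and the dashed line the median of all genes, -0.01. Among the lists plotted, histones, RP and MRP genes have the lowest medians and the stress and chaperone lists the highest.

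Genes of glycolysis and fermentation went both ways. Of 27 genes tested, 14 fell and 11 rose, where 20.2% of all genes fell and 17.9% rose. TDH3 (-0.64), ENO2 (-0.34), CDC19 (-0.31) and HXK2 (-0.31) fell, whereas their isoforms TDH1 (15.8 and 18.9 against 43.7 and 47.7 scaled CPM, 1.42, SE 0.16), ENO1 (0.86), PYK2 (24.1 and 26.9 against 85.9 and 87, 1.77, SE 0.13) and HXK1 rose. These pairs were named after their values were seen, apart from HXK1, PYK2 and TDH1. PDC5, a minor pyruvate decarboxylase, rose from 36.5 and 38.8 to 74.6 and 83 (1.08, SE 0.12). The isoforms are alike in sequence and only unique reads were counted. Among hexose transporters and their regulators, 3 of 12 rose and 2 fell, or 1 rose without the second asc1-M1X library, where 17.9% of all genes rose and 20.2% fell. Among them were HXT1 for low-affinity glucose uptake at -0.58 and MTH1, a repressor of HXT genes, at 1.43.

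Respiratory genes of the nucleus changed little as a list. Of 37 tested, 10 rose and 2 fell, where 17.9% of all genes rose and 20.2% fell. The median was 0.08, and with scaling by library size 17 rose. Without 1 library at most 1 fell. QCR2 of complex III was at 193 and 185 scaled CPM against 289 and 294 (0.62, SE 0.07) and SDH2 of complex II at 46.8 and 44.3 against 70.1 and 70.9 (0.62, SE 0.12), QCR10 rose by 0.54 and ATP18 fell by 0.53. ATP18 rested on few reads and was not called by DESeq2, nor was QCR10.

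Ribo-Zero libraries give access to RNA of the mitochondrial genome, which took 1.49% and 1.36% of the counted reads in WT and 1.41% and 1.31% in the mutant, against at most 0.0334% in the oligo-dT libraries and 0.00159% in the FP libraries. Of its 19 ORFs, 18 were tested, and 11 fell and 1 rose, where 20.2% of all genes fell and 17.9% rose. The median log2 change was -0.21. With scaling by library size it was -0.12, and 8 ORFs fell. Several of the 11 overlap each other or another ORF, so they are not separate readings. COX2, a subunit of cytochrome oxidase, was at 496 and 478 scaled CPM in WT and at 329 and 341 in the mutant (-0.54, SE 0.06). VAR1, the single ribosomal protein made in yeast mitochondria, was at 146 and 162 against 99.5 and 107 (-0.56, SE 0.08). OLI1, subunit 9 of the ATP synthase, fell from 334 and 350 to 274 and 271 (-0.32, SE 0.06) and COX3 from 262 and 261 to 224 and 229 (-0.21, SE 0.06). The WT and mutant values of these 4 genes did not overlap. Of all genes tested, 34.7% were lower in the mutant without overlap. DESeq2 did not call COX3, and 1 fit together with the oligo-dT libraries did not call VAR1 or OLI1.

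COX1 differed less, with 1756 and 1507 scaled CPM in WT and 1652 and 1559 in the mutant, a log2 change of -0.03 (SE 0.05; adjusted p = 0.687, edgeR quasi-likelihood test). ATP6 stood at 349 and 316 against 319 and 296 (-0.12, SE 0.06) and ATP8, with few reads, at 32 and 24.4 against 22.4 and 34.8 (0.00, SE 0.16). Neither passed the test. COB, cytochrome b, fell from 1028 and 977 to 848 and 820 (-0.27, SE 0.05), and the maturases read from its introns did so too, BI2 by 0.28, BI3 by 0.28 and BI4 by 0.30 on the log2 scale. These ORFs overlap COB, so the 4 values are not independent. Of the ORFs that overlap COX1, AI1 had a log2 change of -0.21 and AI3 of -0.14, and both fell, while AI2 (-0.08), AI4 (-0.04) and AI5_ALPHA (-0.06) did not pass the test. Q0255, which overlaps COX2, was at 87.7 and 72.7 against 65.3 and 64.9 (-0.32). AI5_BETA was under the read minimum.

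SCEI rose. It codes for the endonuclease of the intron in the large ribosomal RNA gene of mitochondria, and stood at 104 and 133 scaled CPM in WT and at 164 and 187 in the mutant (0.60, SE 0.08). Its reads overlap that ribosomal RNA gene, and how far the Ribo-Zero kit removed that RNA in each library was not tested. DESeq2 called 8 ORFs down and SCEI up. In 1 fit with the oligo-dT libraries, in which 12 mitochondrial ORFs had enough reads, 3 fell and none rose. In bulk samples, fewer cells or organelles of a kind and less RNA in each cannot be told apart.

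**Figure D4:**
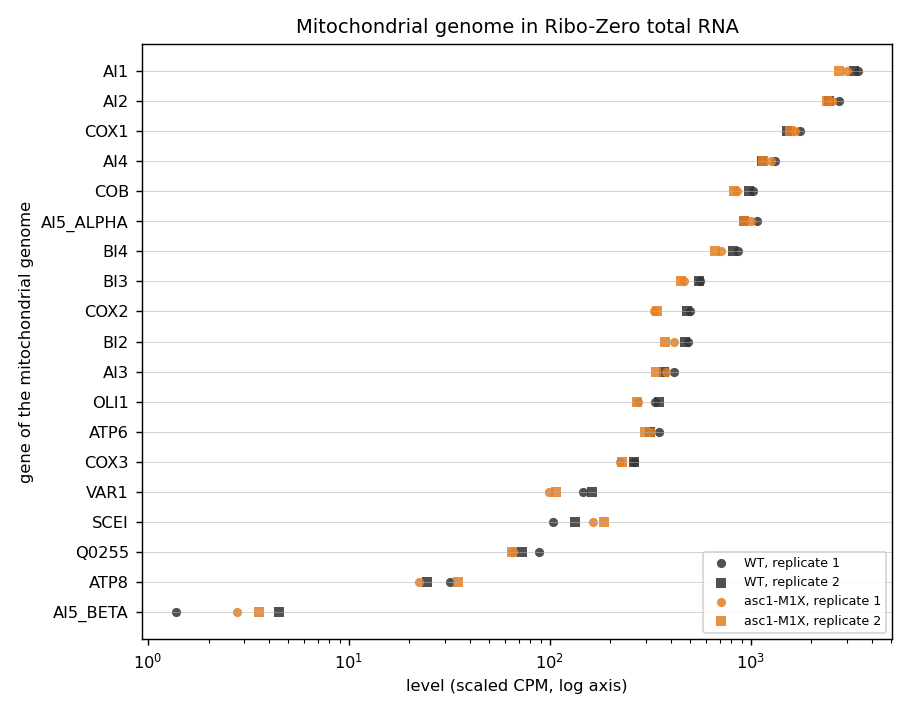
Level of the 19 ORFs of the mitochondrial genome (y axis, ordered by WT level) in each of the 4 Ribo-Zero libraries (x axis, scaled CPM, log axis; black WT, orange asc1-M1X). COX2, VAR1, OLI1, COX3 and COB lie lower in both mutant libraries, COX1 points overlap, and SCEI lies higher.

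Amino acid genes did not move as one, and their counts are to be read against the 17.9% of all genes that rose and the 20.2% that fell. Of 12 arginine genes 6 rose and 2 fell, or 1 fell without the first library of either strain. CPA1, a subunit of the arginine-specific carbamoyl phosphate synthetase whose upstream reading frame stalls ribosomes in arginine, was at 489 and 452 scaled CPM against 352 and 368 (-0.39, SE 0.06). CAR2, of arginine breakdown, rose by 0.97 and ARG3 by 0.55. Of 10 lysine genes 4 rose and 2 fell, led by LYS1, which makes lysine from saccharopine (268 and 298 against 523 and 577, 0.97, SE 0.06), followed by ARO8 (0.74), LYS5 (0.53) and LYS21 (0.36). Of 6 histidine genes 3 rose and none fell: HIS5 (276 and 264 against 497 and 520, 0.91, SE 0.06), HIS4 (0.81) and HIS7 (0.58).

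Of 13 aromatic amino acid genes 7 rose and 1 fell, or 4 rose without the second asc1-M1X library, with ARO9, an aminotransferase of aromatic amino acid breakdown, at 17.6 and 16.4 against 36.4 and 41.7 scaled CPM (1.20, SE 0.17), ARO10 at 0.95, TRP3 at 0.54 and TRP5 at 0.51. Branched-chain genes went the other way, with 5 down and 1 up of 11. ILV5, acetohydroxyacid reductoisomerase, was at 4726 and 5065 against 3533 and 3613 (-0.45, SE 0.05), and BAT2 (-0.47), ILV3 (-0.36) and ILV6 (-0.27) fell with it. Among the other amino acid genes, 7 of 24 rose and 3 fell, and 13 rose with scaling by library size. PUT1, proline oxidase, rose by 1.38, CHA1, which breaks down serine, by 1.33 and GDH1, glutamate dehydrogenase, by 0.55, and GLN1, glutamine synthetase, fell from 1518 and 1382 to 858 and 857 (-0.76, SE 0.05).

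Of 30 purine and one-carbon genes 13 rose and 8 fell, or 5 fell without the first library of either strain and 4 by DESeq2. The glycine cleavage genes led, with GCV1 at 104 and 74.2 scaled CPM against 241 and 304 (1.59, SE 0.11) and GCV2 at 123 and 107 against 258 and 294 (1.25, SE 0.07), followed by ADE1 (0.92) and ADE57 of purine synthesis (0.66). Of 24 sulfur genes 7 fell and 5 rose. These counts and those of the purine list stand beside 20.2% down and 17.9% up over all genes. MET2 fell as above and MET17 stood at 493 and 505 against 310 and 294 (-0.72, SE 0.06). STR3 (1.20) and the sulfate transporter gene SUL2 (0.66) rose. The median of the sulfur list was -0.01 and changed sign with scaling by library size, without a read minimum and without single libraries, so no direction is given for it.

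Of 15 phosphate genes tested 9 rose and 1 fell, where 17.9% of all genes rose and 20.2% fell. Their median was 0.46. By DESeq2 6 rose and 1 fell, and VTC1 was not called. PHO89 held only 10 and 5 reads in WT, against 77 and 100 in the mutant, and so passed the read minimum through the mutant. PHO89 was at 3.44 and 2.49 scaled CPM in WT against 19.3 and 22.3 (2.76, SE 0.32), VTC3 of polyphosphate synthesis at 102 and 136 against 204 and 234 (0.91, SE 0.08), VTC1 at 70.9 and 102 against 121 and 143 (0.66, SE 0.09), and GPP2, a glycerol phosphatase, at 33 and 35.8 against 54.5 and 51.3 (0.63, SE 0.13). In VTC1 and VTC3 the second WT library lay above the first. PHO84, the high-affinity phosphate transporter, named after its values were seen, showed this most, with 7.91 and 66.2 scaled CPM in WT and 289 and 367 in the mutant. Its log2 change of 3.36 (SE 0.84) was the largest of all genes tested and did not pass the test (adjusted p = 0.122, edgeR quasi-likelihood test). The WT libraries lay far apart. The oligo-dT libraries showed the same, with 10.2 and 70.9 in WT numbers 1 and 2 against 321 and 374.

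Of 29 iron genes 10 fell and 1 rose, where 20.2% of all genes fell and 17.9% rose. FRE4 was by far the lowest, TIS11, which destabilizes mRNA of iron-using proteins, had a log2 change of -0.77, FRE2 of -0.57 and the iron permease gene FTR1 of -0.47 (430 and 452 against 332 and 306 scaled CPM). TIS11 and FRE2 were not called by DESeq2, by which 4 iron genes fell. Without the second WT library 4 fell and without either asc1-M1X library 6 did, and the list's median of -0.07 became 0.02 with scaling by library size. Of 14 zinc genes 4 fell and 3 rose, shares near those of all genes, and 2 fell without the first asc1-M1X library, without which the median of 0.04 also changed sign. DESeq2 called 1 up and 1 down. Named by rule were DPP1 (0.57) and IZH2 (0.47) up and TSA1 (-0.46) and the metal transporter gene FET4 (-0.33) down.

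Of 6 a-specific mating genes tested, 2 fell (1 without the second WT or the first asc1-M1X library), the pheromone receptor gene STE2 (1055 and 1046 against 908 and 856 scaled CPM, -0.25, SE 0.05) and MFA2 for a-factor (-0.49, SE 0.15), and neither of the 2 alpha-specific genes tested, STE3 (0.05) and SAG1 (0.35), passed the test. Of 32 genes of the pheromone response 10 fell and 4 rose, where 20.2% of all genes fell and 17.9% rose. None of those 10 was called by DESeq2. Without the first WT or the second asc1-M1X library 6 fell. AGA1, the agglutinin anchor, rose from 48.5 and 36.8 to 101 and 97.9 (1.19, SE 0.11) and FIG2 rose by 0.74, whereas PCL2 and CIK1 had changes of -0.53 and -0.49.

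Of 45 factors of poly(A) tails and mRNA decay, 15 fell and 5 rose, where 20.2% of all genes fell and 17.9% rose. The median of -0.04 became 0.04 with scaling by library size, by which 9 fell and 13 rose. Without the first WT library 9 fell and 2 rose, without the second asc1-M1X library 8 and 2, and without the first 3 rose. XRN1, the main 5′ exonuclease, was at 879 and 924 scaled CPM against 705 and 707 (-0.35, SE 0.05), PAP2, a noncanonical poly(A) polymerase, at 109.1 and 107.5 against 80.6 and 76.9 (-0.46, SE 0.10), LSM7 had a change of -0.46 and EDC2, an enhancer of decapping, rose by 0.84. Of the genes used as selectable markers, 4 were in the table, and LYS2 (-0.25) and MET17 fell while ADE2 (0.43) and CAN1 (0.26) rose.

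Oligo-dT total RNA of the same strains gave a separate reading of the same change. In it 957 genes rose (18.4% of 5202 tested) and 1021 fell (19.6%). Over the 4999 genes tested in both, 581 genes rose in both, which is 64.8% of those that rose in Ribo-Zero total RNA and 66.3% of those that rose in oligo-dT total RNA, and 687 fell in both, 68.4% and 67.6%. In opposite directions went 9 genes that rose in Ribo-Zero total RNA and fell with oligo-dT, and none the other way. The libraries are separate, but the mutant ones came from the same 2 isolates, and total RNA was isolated from the extracts used for footprinting, so that the RNA of both kinds may come from the same extracts.

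FP libraries gave another readout of the same genes. In them 1271 genes rose (25.6% of 4960 tested) and 1348 fell (27.2%). Of the genes that rose in Ribo-Zero total RNA and were tested in both, 656 rose also in FP (75.3% of them and 53.4% of those that rose in FP), and 727 fell in both (73.6% and 54.3%), while 12 and 15 went in opposite directions. The medians of RP genes were -0.39 in Ribo-Zero total RNA and -0.54 in FP, those of MRP genes -0.30 and -0.39, and those of the stress list 0.55 and 1.02. For CPA1 the log2 change was -0.39 in RNA and -1.42 in FP. RGT1, a repressor of hexose transporters, had an RNA change of 0.49 (138 and 153 against 210 and 198 scaled CPM) and an FP change of -0.59. Whether FP and RNA changes differ was not tested with these libraries.

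In oligo-dT total RNA of asc1∆, which shares no library with the Ribo-Zero comparison, 864 genes rose (16.6% of 5200 tested) and 833 fell (16%). Its WT libraries are those of the oligo-dT comparison of asc1-M1X. Their RNA may come from the same extracts as that of the Ribo-Zero WT libraries, so the WT side may not be independent. ANB1 had a log2 change of -2.79 there, FRE4 of -2.29, HXK1 of 2.31, SNZ1 of 1.68 and HSP26 of 2.40. Of the calls in Ribo-Zero total RNA, 542 were shared upward (60.5% of these and 69.4% of those in asc1∆) and 586 downward (58.3% and 70.7%).

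The difference between RNA selections was tested gene by gene, as the interaction of strain and selection over the 8 total RNA libraries. It passed for 53 of 4999 genes (1.06%), and 529 had an unadjusted p under 0.05. In 48 of them (0.96%) the change was more upward in Ribo-Zero total RNA and in 5 (0.1%) more downward. With each mutant isolate and each WT number as a block, since the mutant libraries of one number came from one isolate, 122 and 25 genes passed, among them each of the 53. Without 1 of the Ribo-Zero libraries the counts were 10 to 16 upward and 1 downward, so that most of these calls need all 4. Without the second oligo-dT WT library they were 118 and 38. DESeq2 called 52 and 5, of which 35 were among the 53.

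ASC1 had the smallest p of all, with a difference of -0.76 (SE 0.08; adjusted p = 1.38e-05, edgeR quasi-likelihood test). The mutant kept 34.2% of the WT level without selection and 58% with oligo-dT, and the difference passed under each of 14 alternatives. The other genes more downward in Ribo-Zero total RNA were AIR1, of the TRAMP complex that adds tails to RNA for nuclear decay (-0.50), MTC7 (-0.44), FOL2, GTP cyclohydrolase (-0.42), and VMA3, a subunit of the vacuolar ATPase (-0.34). MTC7 was at 221 and 225 scaled CPM in WT and at 129 and 125 in the mutant without selection. For these 4 genes the call was lost under 5 to 7 of the alternatives.

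Upward, the largest difference was that of PRY3, a cell wall protein of daughter cells, which rose in Ribo-Zero total RNA (58.1 and 59.2 against 96.5 and 86.8 scaled CPM, 0.64) and had a change of -0.18 with oligo-dT, a difference of 0.82 (SE 0.18; adjusted p = 0.0482, edgeR quasi-likelihood test). It passed under 6 of 13 alternatives. BBC1, a regulator of actin patches, rose from 156 and 159 to 318 and 326 without selection (1.03) and by 0.34 with it, a difference of 0.69 (SE 0.09). Differences for YBP1 and DCS1, a hydrolase of the caps left by mRNA decay, were both 0.75, with a change of 1.90 against 1.15 in YBP1 and of 1.34 against 0.59 in DCS1. RNQ1, a prion protein, changed by 0.50 against -0.15 (147 and 133 against 193 and 204 without selection). The differences of BBC1, PFK2 and RNQ1 passed under every alternative that tested them.

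Of the 48 genes, 32 rose and 4 fell in Ribo-Zero total RNA, while 9 rose and 25 fell with oligo-dT, and 9 were called in opposite directions. Of the 27 tested genes of the glycolysis and fermentation list, 7 were among the 48, against 0.96% of all genes, and none among the 5. PFK2, a subunit of phosphofructokinase, was at 2384 and 2245 scaled CPM in WT and at 2480 and 2554 in the mutant without selection (0.12, SE 0.05), and had a change of -0.48 with oligo-dT. PFK1, its partner, had changes of 0.03 and -0.41, PGI1 of 0.14 and -0.22, HXK2 of -0.31 and -0.68, CDC19 of -0.31 and -0.65, PDC1 of -0.17 and -0.46 and GPD1 of -0.04 and -0.63. In all 7 the change with oligo-dT was a decrease that passed its own test. Without selection PFK2 and PGI1 rose, PFK1 and GPD1 did not pass, and the other 3 fell less. The rise of PFK2 itself was not called by DESeq2, nor in 1 fit with the oligo-dT libraries. These 7 were taken by their difference, so that a change more upward without selection followed from the choice. PFK2 apart, they were named after their values were seen. The median of the glycolysis list was -0.17 without selection and -0.41 with it.

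RP genes leaned the other way, with medians of -0.39 and -0.24 and 125 against 86 genes that fell, but none of 131 passed the test of the difference. Nor did any of 74 MRP genes (medians -0.30 and -0.16, 31 and 23 genes that fell) or any of 11 histone genes. Of 12 mitochondrial ORFs with enough reads in both, none passed. These statements are for the fit without a block. With the block 122 genes passed upward and 25 downward, and how many of them belong to these lists was not counted. The median standard error of a difference was 0.13 on the log2 scale over all genes tested. A test that single genes miss does not show that their changes were alike.

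**Figure D5:**
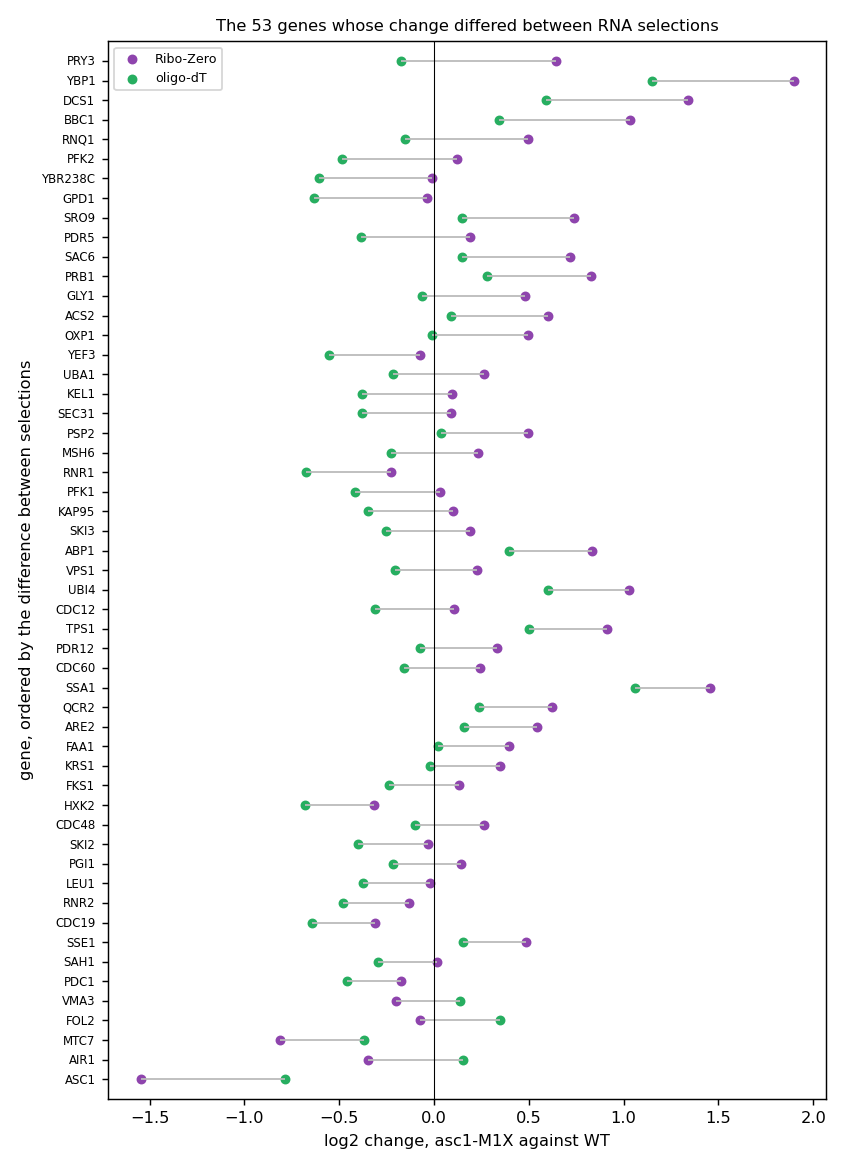
Log2 change in asc1-M1X (x axis) in Ribo-Zero total RNA (purple) and in oligo-dT total RNA (green) of the 53 genes whose change differed between RNA selections by edgeR's test (y axis, ordered by the difference). In 48 genes the purple point lies to the right, from PRY3 at 0.64 and -0.18 downward, and ASC1 at the bottom lies at -1.55 and -0.79.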

How the data were processed

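Total RNA was isolated with hot acid phenol from the extracts used for footprinting and was either depleted of rRNA with Ribo-Zero or selected with oligo-dT cellulose, then fragmented, ligated to a 3′ adaptor and reverse transcribed. The authors aligned reads with TopHat to the Sigma1278b genome, kept unique alignments, left out the beginning of each ORF and deposited read counts per ORF. Versions and the use of strand are not given in the sources used here. Deposited columns of the authors' own fold changes were not used.

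Counts were tested with edgeR 4.0.16 (robust quasi-likelihood fit, R 4.3.3) for ORFs with at least 128 reads over the 4 libraries, with TMM factors from nuclear ORFs and Benjamini-Hochberg adjustment over all ORFs tested at a threshold of 0.05. Each comparison was fitted on its own libraries, and the difference between RNA selections was a strain by selection term over 8 libraries. Alternatives were median-ratio scaling, scaling by library size, DESeq2 1.42.0, other read minimums, leaving out each library, the replicate number as a block, mitochondrial ORFs in the library sizes, 1 fit with the oligo-dT libraries, and a non-robust fit chosen after seeing the data. In simulated counts for the Ribo-Zero comparison, on 4938 genes, edgeR recovered 80.81% of log2 changes of 0.5 and 96.94% of those of 1, with 8 false calls of 183, and DESeq2 recovered 50.51% and 87.76%.

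Symbols came from RefSeq for S288C (R64), which matched 5542 of 5544 identifiers. Coordinates, promoters and ORF lengths were not analysed here. A gene list and some single genes are not reported here. Levels are not compared between genes, since CPM does not correct for length. Genes were named by rule: the 15 largest increases and decreases past the threshold with groups that did not overlap, up to 6 selection differences in each direction, the mitochondrial ORFs and up to 4 members of each list with the largest change past the threshold. Members, lists and rule were chosen with earlier results of these data known. The numbers of the mutant libraries mark isolates, which were the same for both RNA selections, while the WT libraries share 1 strain. Deviations of same-numbered libraries correlated at 0.06 between strains in Ribo-Zero total RNA, and between selections at 0.18 in WT and 0.09 in the mutant.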

Additional observations from a re-analysis of the deposited data

Results flagged for a closer look

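The genes named by rule whose change differed between RNA selections (edgeR's test of the strain by selection term) are given here with their difference, Ribo-Zero minus oligo-dT, on the log2 scale. Lower without selection were ASC1 (-0.76), AIR1 (-0.50), MTC7 (-0.44), FOL2 (-0.42) and VMA3 (-0.34). Higher without selection were PRY3 (0.82), YBP1 (0.75), DCS1 (0.75), BBC1 (0.69), RNQ1 (0.65) and PFK2 (0.60), and, among list members, RNR1 (0.45), the large subunit of ribonucleotide reductase, SSA1 (0.39) and QCR2 (0.39). RNR1 fell by both selections, by 0.23 without and by 0.68 with oligo-dT on the log2 scale. FOL2 was the one of these genes not called in Ribo-Zero total RNA, at 160 and 186 scaled CPM in WT and 160 and 166 in the mutant. All groups have 2 libraries, so no library was tested for lying apart within its group.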

How the results depend on the processing

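In Ribo-Zero total RNA, median-ratio scaling, other read minimums, mitochondrial ORFs in the library sizes, the non-robust fit and the replicate block (927 up, 1038 down) kept both counts within 1.5 times, and so did 1 fit with the oligo-dT libraries (753 and 824). DESeq2 gave 442 and 450, and scaling by library size gave 637 down. Leaving out 1 library gave 566 to 789 up and 648 to 857 down, lowest without the second asc1-M1X library. No call of a named gene was reversed under any alternative run, whereas genes without a call near 0, such as COX1 (-0.13 to 0.09), AI2 and FOL2, changed sign. DESeq2 lost the calls of 27 named genes, RSM27, TIS11, MRPL38, MRPL44, FRE2 and ATP18 among them. In oligo-dT total RNA, scaling by library size gave 1661 up and 447 down, DESeq2 637 down, and leaving out 1 library 538 to 936 up and 495 to 979 down, lowest without the second asc1-M1X library (578 and 556 without the first). In FP, scaling by library size gave 1999 up and 769 down, and leaving out 1 library 1045 to 1201 up and 1098 to 1270 down. In asc1∆, scaling by library size gave 1516 up and 330 down, DESeq2 560 and 531, the replicate block 1407 down, and leaving out 1 library 574 to 737 up and 561 to 630 down, lowest without the first asc1∆ library. Scaling by library size put the median of all genes at 0.07 in Ribo-Zero total RNA, 0.12 in oligo-dT total RNA, 0.15 in FP and 0.13 in asc1∆, against values near 0 with TMM. For the difference between selections, the replicate block gave 122 and 25, scaling by library size 8 downward, and leaving out 1 library 10 to 118 upward and 1 to 38 downward. Upward, 10 to 16 passed without any 1 Ribo-Zero library, 27 without the second oligo-dT asc1-M1X library and 118 without the second oligo-dT WT library. With 1 library of a strain left, it was assumed to vary like the others. The cause of these differences was not tested. Below about 128 reads over the 4 libraries, which held for 538 ORFs, changes were not tested at this depth.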

Other observations

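The gene groups below were put together after their values were seen, so their counts are a description. They are to be read against the 17.9% of all genes that rose and the 20.2% that fell. Of 11 hypoxic genes tested 8 fell and 1 rose, with a median log2 change of -0.54 against -0.01 over all genes. Besides ANB1, TIR1 and AAC3, these were TIR3 (41.3 and 42.3 against 24.9 and 22.8 scaled CPM, -0.81), HMG2, an HMG-CoA reductase (175 and 174 against 121 and 120.0, -0.54), the sterol regulator UPC2 (-0.59), HEM13 of heme synthesis (-0.48) and the repressor ROX1 (-0.27). The desaturase gene OLE1 rose (0.19).

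Of 14 genes of NAD and vitamin B6 synthesis 11 rose and none fell, with a median of 0.41. BNA5, kynureninase, was at 90.1 and 86.6 scaled CPM in WT and at 166 and 179 in the mutant (0.96, SE 0.09), and BNA4 (0.71), BNA6 (0.45) and the transporter gene TNA1 (0.45) rose with it. Of 13 genes repressed by glucose 8 rose and 2 fell, with a median of 0.76, but 4 rose without the first asc1-M1X library and 3 without the second. The list has 22 genes in the table, and those under the read minimum were not tested. A gene low in WT can reach that minimum through its mutant reads, which tilts the counts and the median upward. CAT8, an activator of such genes, held 20 and 7 reads in WT and 71 and 86 in the mutant. Over the alternatives the list's median ranged from 0.08 to 1.015. CAT8 was at 6.88 and 3.48 scaled CPM against 17.8 and 19.2 (1.75, SE 0.29). Its fellow activator ADR1 had a change of 1.28, whereas MDH2 and HAP4 (-0.39) fell.

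Of 23 ergosterol genes 13 rose and 5 fell. ERG26 (0.56) and ERG4 (0.43) rose most, and HMG2, ERG1 (-0.37), ERG2 (-0.37), ERG11 (-0.36) and ERG28 (-0.32) fell. Of 9 cyclins 3 fell, CLB1, CLN1 and CLB3 (-0.41), while CLN2 (-0.01) and CLB2 (-0.04), their close relatives, did not pass the test. Of 33 proteasome genes 12 rose and none fell, by small amounts (PRE10 0.27, PRE2 0.22), but only 2 rose by DESeq2, 3 without the first WT library, and 5 and 2 without the first and second asc1-M1X library. Of 9 genes of nucleotide and DNA synthesis, CDC21, thymidylate synthase, rose (0.46, a call lost by DESeq2 and without the first WT library) and RNR4 (-0.24) and RNR1 (-0.23) fell.

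Between replicates, 6 genes differed by more than 1 on the log2 scale in the WT libraries. PHO84 differed most, by 2.99, and its footprints also differed in WT, with 16 reads in the first library and 117 in the second. SPL2, a phosphate gene under the read minimum, held 3 and 1 reads in WT and 26 and 33 in the mutant. COS12, a subtelomeric gene, differed most between the mutant libraries. They stood at 22.9 and 42.6 scaled CPM in Ribo-Zero total RNA and at 26.9 and 54.4 in oligo-dT total RNA. In WT, which is 1 strain, the second library was the higher as well, by less. The WT values were 17.55 and 21.9 in Ribo-Zero total RNA and 19.93 and 28.73 in oligo-dT total RNA.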
